A study of Mus musculus with 8 samples.

Results

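The genes for the proteins of the cytosolic ribosome were followed by bulk RNA sequencing of the heart in male mice of the inbred strain 129/Sv. Members were all genes of the deposited count table whose symbol begins with Rpl or Rps and a digit, together with Rpsa, Rplp0, Rplp1 and Rplp2, and without the ribosomal S6 kinases, Rps19bp1 and rows named as pseudogenes. This gave 86 of 27304 genes, 52 of the large subunit and 34 of the small subunit. Of these, 77 are core ribosomal protein genes, 46 large and 31 small, and 9 are paralogs or retrocopies (Rpl3l, Rpl7l1, Rpl10l, Rpl22l1, Rpl36al, Rpl39l, Rps4l, Rps27l and Rps27rt). By their names the rule leaves out Fau, which encodes a fusion of a ubiquitin-like protein with a ribosomal protein, and Rack1, a small-subunit protein, and both are given apart.

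In the adenine group (4 libraries), mice ate chow with 0.15% adenine for 13 weeks, which damages the kidney tubules and is used as a model of chronic kidney disease. In the control group (4 libraries), mice of the same strain and sex ate a standard diet for 13 weeks. The titles of the control libraries name them Sham. The labels give neither the age of the mice nor whether each library came from its own animal, and the series' design text states that replicates were not used. Every SD and p-value therefore reflects the spread between the 4 libraries of a diet, part of which may be technical. Total counts ran from 15626620 in adenine 2 to 29831706 in adenine 3, and from 24107554 to 33886385 in the control libraries. All 14 cardiomyocyte markers listed were present in every library, and their summed level was 46470 to 75220 CPM (counts scaled to a common library size) in adenine hearts and 64040 to 83000 CPM in control hearts.

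A ribosome is built from a large subunit, which joins amino acids and holds the exit tunnel, and a small subunit, which reads the mRNA. Cells make the proteins of both in nearly equal amounts, and most of their mRNAs begin with a cytosine followed by a run of pyrimidines, the 5′ terminal oligopyrimidine (TOP) motif. Through this motif the kinase complex mTORC1 and the RNA-binding protein Larp1 adjust how strongly these mRNAs are translated and how stable they are. Heart and skeletal muscle also use Rpl3l, a striated-muscle paralog of Rpl3 that takes the place of Rpl3 in part of the ribosomes.

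The starts of 8 members are shown because the TOP run is the sequence feature known for these genes, and it was found near the annotated start of some of them. Each is 15 bases before and 15 bases from the annotated RefSeq start in GRCm38.p6, 5′ to 3′ on the gene's strand, and capitals mark a run that begins with C and goes on with at least 4 further pyrimidines, within 5 bases of that start. The first 6 are core genes, Rpl22l1 is a paralog with a run, and Rpl3l is a paralog without one within 5 bases of the start.
Rps6: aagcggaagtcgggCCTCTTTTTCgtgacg
Rps18: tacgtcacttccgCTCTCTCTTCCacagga
Rpl15: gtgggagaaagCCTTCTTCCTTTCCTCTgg
Rpl18: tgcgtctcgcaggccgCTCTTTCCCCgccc
Rpl28: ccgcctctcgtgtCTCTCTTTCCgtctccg
Rplp2: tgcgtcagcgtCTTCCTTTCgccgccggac
Rpl22l1: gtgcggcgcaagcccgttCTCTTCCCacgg
Rpl3l: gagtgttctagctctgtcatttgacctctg

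These windows lie at chr4:86857353-86857382 on the minus strand (Rps6, the substrate of the S6 kinases), chr17:33955651-33955680 on the minus strand (Rps18) and chr14:18270972-18271001 on the minus strand (Rpl15). On the plus strand lie chr7:45718056-45718085 (Rpl18), chr7:4792950-4792979 (Rpl28), chr7:141447636-141447665 (Rplp2, a protein of the stalk that recruits translation factors), chr3:28805493-28805522 (Rpl22l1) and chr17:24727811-24727840 (Rpl3l). Of the 77 core genes, 57 had a RefSeq start entry. A run of C and at least 4 further pyrimidines began exactly at the annotated start in 12 of these 57 (21.1%), against 2.49% of 27025 RefSeq genes. Within 5 bases of the start it began in 26 of the 57 core genes (45.6%), against 18.5% of the RefSeq genes. A match is a description of these letters, and annotated starts may lie some bases from the true one.

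Ribosomal protein genes took 2.19, 1.80, 3.16 and 2.17% of all counts in adenine 1 to adenine 4, against 2.29, 2.31, 2.05 and 2.42% in control 1 to control 4. The means were 2.33 ± 0.583% in adenine hearts and 2.27 ± 0.155% in control hearts (SD, n = 4 each). The diets therefore overlapped, but the adenine libraries held both the highest share (adenine 3) and the lowest (adenine 2). In bulk tissue, fewer cells of a type and less RNA per cell cannot be told apart.

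The same 2 adenine libraries stood at opposite ends for most core genes. Set against each gene's mean log2 CPM in the control libraries, the median core gene deviated by 0.06, -0.40, 0.44 and -0.19 log2 units in adenine 1 to adenine 4, and by -0.03, 0.17, -0.10 and -0.02 in control 1 to control 4. Adenine 3 was the highest of the 8 libraries for 62 of 77 core genes, while it was the highest for 13.8% of all 20093 genes tested. Adenine 2 was the lowest of the 8 for 70 of 77 core genes, while it was the lowest for 18.5% of all genes tested. Above the control mean were 57, 1, 72 and 3 of the 77 core genes in adenine 1 to adenine 4, and 30, 73, 4 and 33 in control 1 to control 4. Control 2 and control 3 thus also moved as a block, over a narrower range, while the core genes were mixed in control 1 and control 4.

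**Figure D1:**
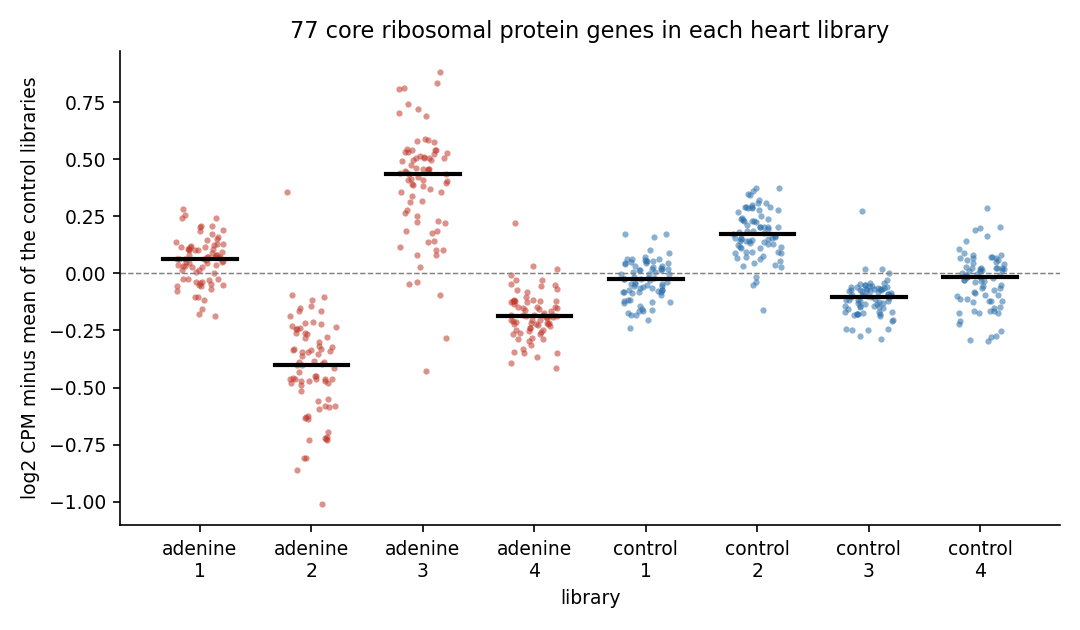
Each point is 1 of 77 core ribosomal protein genes in 1 library, the vertical axis its log2 CPM minus its mean over the 4 control libraries, and the black bar the median. Adenine 3 has its median at 0.44 and adenine 2 at -0.40, and the control medians lie between -0.10 and 0.17.

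Both subunits shared this movement. Large-subunit genes took 1.24, 1.02, 1.80 and 1.23% of counts in adenine 1 to adenine 4, against 1.30, 1.30, 1.16 and 1.37% in control 1 to control 4. Small-subunit genes took 0.946, 0.776, 1.35 and 0.937% of counts in the adenine libraries, against 0.991, 1.004, 0.895 and 1.05% in the control libraries. The median deviation of large-subunit core genes minus that of small-subunit core genes stayed between -0.004 and 0.060 log2 units in adenine hearts and between -0.023 and 0.040 in control hearts. The balance of the subunits therefore varied far less than their common level.

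Other measures moved with these 2 libraries. All 12 macrophage markers listed were highest in adenine 3, none was at 0 in any library, and their summed level was 527, 388, 2846 and 348 CPM in adenine 1 to adenine 4, against 437 to 740 CPM in control hearts. Lyz2, a lysozyme of myeloid cells, had 2065 CPM in adenine 3, while adenine 1, 2 and 4 had 256, 187 and 146 CPM and the control libraries 170 to 310 CPM. Of 14 cardiomyocyte markers, 10 were lowest in adenine 3. Adenine 2 was the shallowest library and had 41.9% of its counts on mitochondrially encoded genes, while adenine 1, 3 and 4 had 41.0, 34.2 and 35.1% and the control libraries 31.0 to 35.6%. Of 12 fibroblast markers, 10 were lowest in adenine 2, and their summed level was 1257 CPM there, while adenine 1, 3 and 4 had 2105, 3900 and 2089 CPM and the control libraries 2328 to 3404 CPM. The part of these measures in the ribosomal protein level was not tested.

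The comparison of the diets asked whether ribosomal protein mRNAs differ in the heart of mice with adenine-induced kidney disease. Of the 86 genes, 85 passed the low-count filter (Rpl36al did not), among them all 77 core genes. At an adjusted p under 0.05 (edgeR's quasi-likelihood test, Benjamini-Hochberg adjustment over 20093 genes), 0 of 85 were called higher in adenine hearts and 0 were called lower, where 0.0398% and 0.0% of all genes tested were called. At an unadjusted p under 0.05, 1 was higher (Rpl39l) and 2 were lower (Rpl22l1 and Rpl7l1), against 10.9% and 6.63% of all genes. All 3 are paralogs, so 0 of 77 core genes passed even this threshold. DESeq2, which gave Rpl39l and Rpl10l no adjusted p, and limma-voom each called 0 members, where they called 1.63% and 0.0249% of all genes.

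Log2 fold changes of the core genes (adenine minus control) ran from -0.32 to 0.25, with standard errors of 0.15 to 0.31. Over the 85 members the median was -0.01, with 39 above 0 and 46 below, and over all genes tested it was 0.05. For no member did the CPM of the 4 adenine libraries lie wholly above or wholly below that of the 4 control libraries, whereas such a gap was found in 3.45% of all genes (adenine higher) and 3.84% (adenine lower).

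The direction depended on which adenine library was left out. Without adenine 3, 81 of 85 members had a negative log2 fold change and the median was -0.16, against 0.03 over the 20093 genes, and still 0 members were called, where 0.322% of the 20824 genes then tested were. Of the core genes, 75 of 77 were then below 0, and the other 2 were Rps13, a small-subunit gene at 0.05, and Rpl24, a large-subunit gene of about 1 CPM at 0.27. Without adenine 2 the median over the members was 0.11, and without both libraries it was -0.07.

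**Figure D2:**
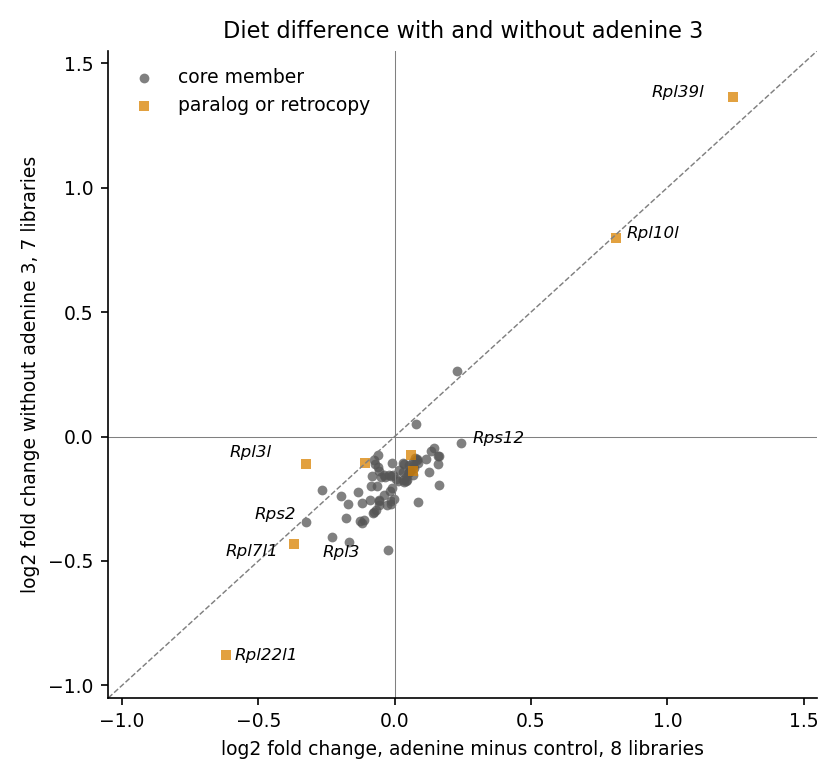
Log2 fold change of each tested ribosomal protein gene (adenine minus control) with all 8 libraries on the horizontal axis and without adenine 3 on the vertical axis, circles for core genes and squares for paralogs or retrocopies. Most core genes lie near 0 on the horizontal axis and below 0 on the vertical axis, and Rpl22l1 lies lowest at -0.62 and -0.88.

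Among the large-subunit genes, Rpl3 encodes a protein that reaches into the peptidyl transferase centre, and Rpl3l is its striated-muscle paralog. Rpl3 had 188, 106, 373 and 179 CPM in adenine 1 to adenine 4, against 218, 266, 194 and 182 CPM in control 1 to control 4. Rpl3l had 257, 190, 92.7 and 200 CPM in the adenine libraries, against 253, 263, 191 and 218 CPM in the control libraries. In adenine 3, Rpl3 was at its highest and Rpl3l at its lowest of all 8 libraries, and the diets overlapped for both genes.

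The log2 fold change was -0.02 ± 0.30 (SE) for Rpl3 (adjusted p = 0.968) and -0.32 ± 0.26 (SE) for Rpl3l (adjusted p = 0.456) in edgeR's quasi-likelihood test. Without adenine 3 it was -0.46 for Rpl3 and -0.11 for Rpl3l. The paralogs thus changed places in which of them had the more negative value, and neither was called. No 50-base window of Rpl3l is shared with another annotated gene, while 67.1% of the windows of Rpl3 are shared, with 26 other genes.

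Within a library, the ratio of Rpl3l to Rpl3 CPM does not depend on scaling. It was 1.36, 1.80, 0.249 and 1.11 in adenine 1 to adenine 4, against 1.16, 0.989, 0.981 and 1.20 in control 1 to control 4. The mean log2 ratio in adenine hearts minus that in control hearts was -0.25 (exact two-sided permutation p = 0.943 over 70 assignments). Without adenine 3 the difference turned to 0.37 (exact permutation p = 0.114). The ratio spread far more among adenine libraries than among control libraries, with an SD of the log2 ratio of 1.28 in adenine hearts and 0.15 in control hearts (n = 4 each), and its lowest value came from the library with the highest macrophage markers and the lowest summed cardiomyocyte markers (46470 CPM). Their part in the ratio was not tested.

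Another pair of paralogs, the elongation factors Eef1a1 and Eef1a2, of which the second is the form of adult muscle and neurons, was set beside them after its values were seen. Eef1a1 had 2206 CPM in adenine 3, while adenine 1, 2 and 4 had 1254, 723 and 951 CPM and the control libraries 1003 to 1512 CPM. Eef1a2 had 552 CPM in adenine 3, while adenine 1, 2 and 4 had 969, 751 and 828 CPM and the control libraries 680 to 1186 CPM. As with Rpl3 and Rpl3l, the broadly expressed form was highest and the muscle form lowest in this library.

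Rpl22, an RNA-binding protein of the large subunit, and Rpl22l1, a paralog whose mRNA Rpl22 is known to repress in mice, differed in their pattern. Rpl22l1 had 21.7, 12.7, 31.5 and 19.3 CPM in adenine 1 to adenine 4, against 36.3, 44.0, 26.6 and 24.2 CPM in control 1 to control 4. Its log2 fold change was -0.62 ± 0.26 (SE), with an adjusted p of 0.271 (edgeR's quasi-likelihood test), and it was lower than every control library in 3 of 4 adenine libraries. Rpl22 had 170, 146, 241 and 150 CPM in the adenine libraries, against 157, 188, 170 and 167 CPM in the control libraries, with a log2 fold change of 0.05. Rpl22l1 thus had the most negative log2 fold change of all members without passing the test, while Rpl22 was close to 0.

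Leaving out adenine 3 gave Rpl22l1 a log2 fold change of -0.88 with an adjusted p of 0.067, and over all alternatives its adjusted p ran from 0.067 to 0.587. The ratio of Rpl22l1 to Rpl22 CPM was 0.128, 0.0873, 0.131 and 0.129 in adenine 1 to adenine 4, against 0.232, 0.234, 0.156 and 0.145 in control 1 to control 4. The ratios did not overlap between the diets, with 0.131 the highest in adenine hearts and 0.145 the lowest in control hearts. How often other ratios of genes show such a gap was not counted. This ratio was chosen after its values were seen and was therefore not tested. Of the 50-base windows of Rpl22l1, 58.9% are shared with other annotated genes, 4 in number.

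**Figure D3:**
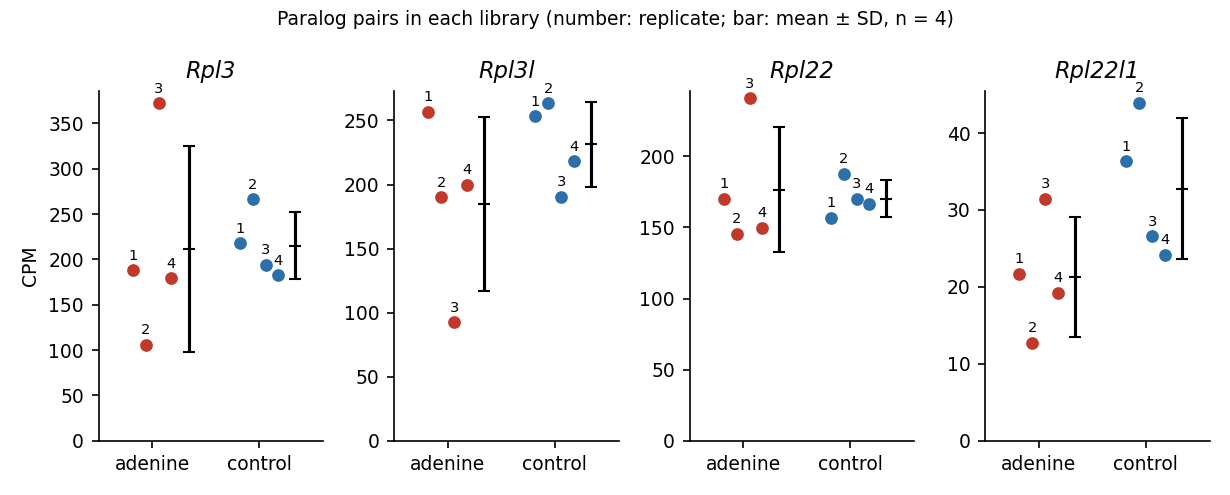
CPM of Rpl3, Rpl3l, Rpl22 and Rpl22l1 in each library (numbered points), with the mean ± SD of each diet (n = 4) as a bar to the right of its points. Adenine 3 is highest for Rpl3 (373 CPM) and lowest for Rpl3l (92.7 CPM), and 3 of 4 adenine libraries lie below all control libraries for Rpl22l1.

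Rplp1, a stalk protein, and the small proteins Rpl36 and Rpl41 had the highest levels per length of the large subunit. Rplp1 had 960, 535, 1041 and 788 CPM in adenine 1 to adenine 4, against 836, 960, 764 and 914 CPM in control 1 to control 4. Rpl36 had 281, 197, 276 and 237 CPM in the adenine libraries, against 228, 269, 242 and 295 CPM in the control libraries. Rpl41 had 382, 304, 465 and 311 CPM in the adenine libraries, against 409, 410, 358 and 414 CPM in the control libraries. All 3 overlapped between the diets, with log2 fold changes of -0.06, -0.06 and -0.12 and adjusted p-values of 0.691 to 0.871 in edgeR's test.

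Rpl39, a short protein in the wall of the exit tunnel, was the core gene that stood out most in adenine 3. It had 137, 91.5, 232 and 105 CPM in adenine 1 to adenine 4, against 122, 134, 121 and 128 CPM in control 1 to control 4. Adenine 3 lay 0.88 log2 units above the control mean for Rpl39, and next after it came Rps12 at 0.84, Rpl10 at 0.81 and Rpl3 at 0.81. The log2 fold change of Rpl39 was 0.16 with all libraries and -0.19 without adenine 3. Rpl36a, a further large-subunit gene, had 141, 103, 199 and 107 CPM in the adenine libraries, against 116, 144, 108 and 125 CPM in the control libraries, and a log2 fold change of 0.16.

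Below the control mean in adenine 3 lay few members. Rpl3l was at -1.31 log2 units, Rps10 at -0.43, Rps2 at -0.28 and Rpl7l1, a paralog of Rpl7, at -0.21. Rpl7l1 had 35.3, 27.6, 37.9 and 36.2 CPM in adenine 1 to adenine 4, against 50.7, 51.9, 38.5 and 36.0 CPM in control 1 to control 4. With a log2 fold change of -0.37 ± 0.16 (SE) and an adjusted p of 0.279 (edgeR's quasi-likelihood test), it overlapped between the diets and was not called. Rpl13a, a large-subunit protein, had 11.5, 7.64, 10.7 and 10.1 CPM in the adenine libraries, against 11.1, 11.2, 11.6 and 12.1 CPM in the control libraries, with a log2 fold change of -0.20.

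Among the small-subunit genes, Rps2 lies at the mRNA entry side of the subunit and had the most negative log2 fold change of the core. It had 889, 547, 743 and 741 CPM in adenine 1 to adenine 4, against 1011, 1075, 762 and 808 CPM in control 1 to control 4. Its log2 fold change was -0.32 ± 0.20 (SE; adjusted p = 0.372, edgeR's quasi-likelihood test). Adenine 1 lay above control 3 and control 4, so the diets overlapped, while the other 3 adenine libraries lay below all control libraries.

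Rps15, a protein of the small subunit's head, and Rps29 had the highest levels per length of this subunit beside Rps2. Rps15 had 472, 303, 478 and 417 CPM in adenine 1 to adenine 4, against 409, 485, 398 and 446 CPM in control 1 to control 4. Rps29 had 253, 226, 286 and 213 CPM in the adenine libraries, against 220, 271, 235 and 260 CPM in the control libraries. Neither differed beyond its spread, with log2 fold changes of -0.06 and -0.01.

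Rps12 and Rps27a had the lowest p-values of the core genes that were higher in adenine hearts. Rps12 had 364, 250, 534 and 275 CPM in adenine 1 to adenine 4, against 271, 333, 283 and 313 CPM in control 1 to control 4, with a log2 fold change of 0.25 ± 0.23 (SE; adjusted p = 0.52, edgeR's quasi-likelihood test). Without adenine 3 the log2 fold change of Rps12 was -0.03. Rps27a, made as a fusion with ubiquitin, had 215, 169, 322 and 189 CPM in the adenine libraries, against 189, 222, 192 and 197 CPM in the control libraries, and a log2 fold change of 0.16. In both genes the adenine libraries reached above and below the range of the control libraries.

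Since the core genes moved as a block, each member was also set against the median core gene of its own library, as a description. On that scale 4 members had all adenine libraries above all control libraries, namely Rpl27a, Rpl37, Rps23 and Rps27a, and 1 had all of them below, Rpl22l1, where 1.65% and 1.39% of all genes tested did so. The scale is built from the core genes, so it takes their shared movement out of the members and puts it into genes that lacked it. The shares over all genes are therefore not a like background for the members, and no excess is read from these counts. Rps23, a protein of the decoding centre, was 0.067, 0.087, 0.083 and 0.061 log2 units above the core median in adenine 1 to adenine 4, against -0.009, 0.060, -0.025 and -0.027 in control 1 to control 4. Its lowest adenine value thus lay only just above its highest control value. Rps27a was 0.070, 0.164, 0.267 and 0.104 above it in the adenine libraries, against -0.030, 0.012, 0.023 and -0.006 in the control libraries. These shifts were small, while Rpl22l1 was at -0.585, -0.911, -0.438 and -0.539 in the adenine libraries, against 0.240, 0.323, -0.180 and -0.383 in the control libraries. With libraries scaled to the summed core counts, edgeR gave Rpl22l1 a log2 fold change of -0.62 with an adjusted p of 0.423.

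The paralogs expressed mainly in testis were near the limit of detection. Rpl39l, a paralog of Rpl39, had 13, 22, 19 and 24 reads in adenine 1 to adenine 4, against 11, 4, 8 and 16 reads in control 1 to control 4. Its log2 fold change was 1.24 ± 0.55 (SE), with an adjusted p of 0.278 (edgeR's quasi-likelihood test). Rpl10l, a retrocopy of Rpl10, had 3, 12, 15 and 16 reads in the adenine libraries, against 5, 5, 9 and 11 reads in the control libraries, with a log2 fold change of 0.81. The reads overlapped between the diets for both, and at these depths counting error is large. Rps27l, a p53-responsive paralog of Rps27, had 63.7, 49.6, 90.7 and 59.1 CPM in the adenine libraries, against 60.2, 63.4, 66.3 and 61.7 CPM in the control libraries, so it too was lowest in adenine 2 and highest in adenine 3.

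Fau and Rack1, ribosomal proteins under other names, followed the core. Fau, which encodes a ubiquitin-like fusion of a small-subunit protein, had 246, 165, 310 and 211 CPM in adenine 1 to adenine 4, against 223, 234, 209 and 217 CPM in control 1 to control 4. Rack1, a scaffold on the small subunit, had 332, 246, 420 and 281 CPM in the adenine libraries, against 343, 396, 294 and 302 CPM in the control libraries. Both were highest in adenine 3 and lowest in adenine 2, and their log2 fold changes of 0.08 and -0.06 did not pass the test.

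Levels of different genes were compared only per length, as TPM (counts divided by the length of the merged exons and scaled to a common total). Rplp1 came first with 2730 ± 779 TPM in adenine hearts and 2825 ± 318 TPM in control hearts (SD, n = 4 each). Rps15 followed with 1087 ± 233 TPM in adenine hearts and 1118 ± 97.7 TPM in control hearts, and Rpl36 with 1059 ± 177 TPM in adenine hearts and 1097 ± 171 TPM in control hearts. Rplp1 lay beyond the spread of the next gene, whereas Rps15 and Rpl36 did not differ beyond their spread. Rps2 had 651 ± 114 TPM in adenine hearts and 807 ± 115 TPM in control hearts. Rpl3l reached a mean of 181 TPM in adenine hearts and 228 TPM in control hearts, among the core genes in level by merged exon length.

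In 74 core genes no other annotated gene on the same strand, small RNA genes aside, overlaps the coding bases. Some of them overlap genes on the opposite strand. Across the 74 the mean level ran from 44.2 to 2730 TPM in adenine hearts (median 266). In control hearts it ran from 43.0 to 2825 TPM (median 263). Both ends were the same genes in both diets, Rps15a at the low end and Rplp1 at the high end. With the median length of coding transcripts in place of merged exons, an alternative chosen after seeing the data, the order from the top was Rplp1, Rps24, Rps2, Rps15, Rps14 and Rpl41. The first place is thus the same under both lengths, and Rps24 and Rps14 enter the top only with coding transcripts. The low end depended on the length used, since with coding transcripts the lowest of the 74 was Rps20, at a mean of 76.1 TPM over all libraries. With coding transcripts the paralog Rpl3l had a mean of 222 TPM over all libraries, below the median of 418 TPM over the 74 core genes.

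The 3 remaining core genes were the lowest of the core, and in each another annotated gene on the same strand covers most of the coding bases. These are Rpl13a (90.3% of coding bases), Rpl24 (83.4%) and Rps10 (80.1%), with means of 1.75 to 7.74 TPM in adenine hearts and 2.03 to 8.84 TPM in control hearts. Rpl24 had 38, 27, 43 and 40 reads in adenine 1 to adenine 4, against 35, 39, 30 and 41 reads in control 1 to control 4. The paralog Rpl36al (95.3%) is covered in the same way and was low as well. The sources used here do not say how reads on overlapping genes were counted, and the part of the overlaps in these levels was not tested.

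**Figure D4:**
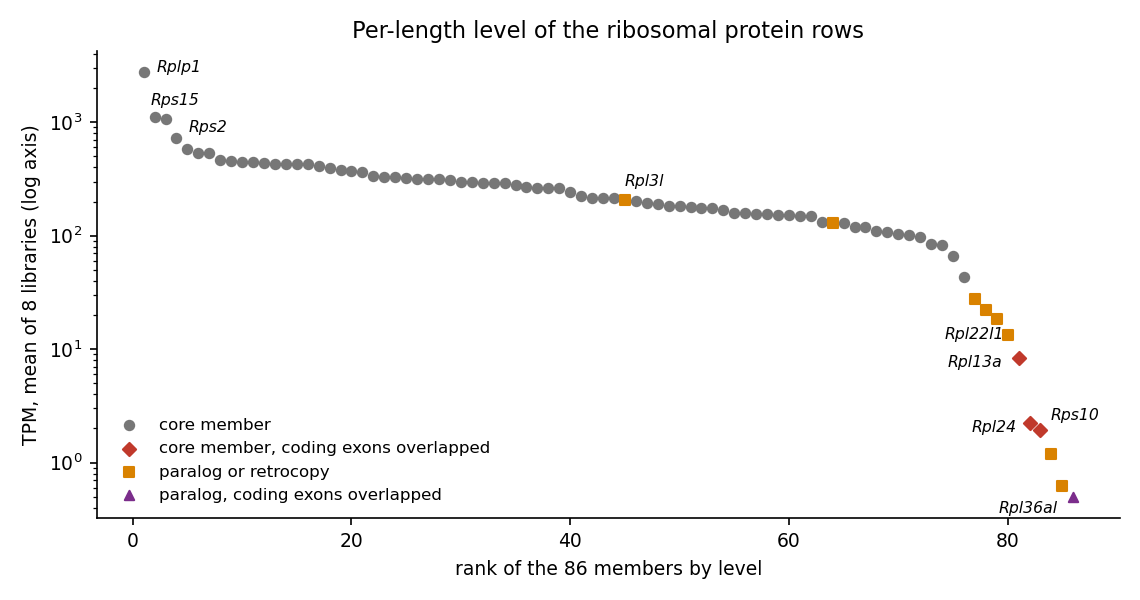
Mean TPM over all 8 libraries (log axis) of the 86 ribosomal protein genes, ordered by level, with symbols for core genes, core genes whose coding bases are overlapped on the same strand, and paralogs or retrocopies. Rplp1 stands highest, Rpl3l lies among the core genes, and the 3 overlapped core genes (Rpl13a, Rpl24 and Rps10) lie below all other core genes.

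Ribosomal protein genes also share sequence with many other annotated genes, counted here on either strand and for genes of any type. Over the core genes a median of 38.5% of 50-base windows, and up to 95.1% in Rpl35, occurred in another annotated gene, and 27 core genes shared 50% or more of theirs. Windows of all members were shared with 1908 genes outside the members, 1106 of them pseudogenes. The paralog Rpl7l1 alone shared windows with 520 other genes, but only 7.48% of its windows were shared. The 4 pseudogene rows named after members held few reads, 492, 393, 863 and 526 in adenine 1 to adenine 4, against 704, 745, 550 and 555 in control 1 to control 4. Pseudogenes under other names held reads too. One of them, Gm8430, had 316, 280, 547 and 298 reads in the adenine libraries, against 290, 377, 295 and 295 in the control libraries. These are reads as counted, not scaled for depth, and adenine 2 is the shallowest library. Core genes lie on 19 chromosomes, and 30 of them hold snoRNA genes within their bounds, 58 in all.

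Genes that work with the ribosome were counted in lists. None of the 40 translation factors was called, 7 had a positive and 33 a negative log2 fold change, and the median was -0.15, against 0.05 over all genes tested and -0.01 over the ribosomal protein genes. Eif4e, which binds the mRNA cap, had the lowest p of them, with a mean of 79.4 ± 2.82 CPM in adenine hearts and 107 ± 17.1 CPM in control hearts (SD, n = 4 each; log2 fold change -0.43, adjusted p = 0.244 in edgeR's test). Its scaffold partner Eif4g1 had a log2 fold change of -0.40, and the helicase Eif4a2 one of -0.45. Of 27 other mRNAs known to carry a TOP motif, 13 were positive and 14 negative, with a median of -0.05, and without adenine 3, 2 were positive and the median was -0.20. Without adenine 3 the median was -0.16 over the ribosomal protein genes and -0.20 over the translation factors. Hnrnpa1, Snhg6 and Eef1g had the lowest p of these, with log2 fold changes of -0.24, 0.36 and -0.23.

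Of 50 ribosome biogenesis genes, 11 were positive and 39 negative, 0 were called, and the median was -0.11 with all libraries and -0.15 without adenine 3. Dkc1, the pseudouridine synthase of rRNA, had 20.3, 18.3, 15.4 and 17.8 CPM in adenine 1 to adenine 4, against 22.2, 27.9, 23.8 and 27.4 CPM in control 1 to control 4. Its libraries did not overlap between the diets, and neither did those of Nop10, Polr3b and Eif4e. Such a gap (adenine lower) was found in 3.84% of all genes tested. The log2 fold change of Dkc1 was -0.50 ± 0.14 (SE), with an adjusted p of 0.214 in edgeR's test. Imp3 and Nop10, proteins of nucleolar RNA-protein complexes, had log2 fold changes of -0.33 and -0.26. Of 18 tested genes for RNA polymerase I, RNA polymerase III and 5S rRNA transcription, 5 were positive and 13 negative, with a median of -0.12 with all libraries and -0.16 without adenine 3. Polr3b, Polr1c and Gtf3a had the lowest p among them, at -0.37, -0.35 and -0.47.

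The list of mTORC1 and TOP regulators had 9 positive and 18 negative of 27, 0 called and a median of -0.11. Ddit4, which inhibits mTORC1 under stress and glucocorticoids, had 120, 48.8, 81.6 and 66.8 CPM in adenine 1 to adenine 4, against 24.5, 32.3, 29.9 and 18.7 CPM in control 1 to control 4. It was higher in all 4 adenine libraries than in any control library, a gap found in 3.45% of all genes tested. Its log2 fold change was 1.59 ± 0.26 (SE), with an adjusted p of 0.0585 in edgeR's test, just short of the threshold. Eif4ebp2, a repressor of Eif4e, was at -0.53, and the transcription factor Myc at 0.83, and neither passed. The libraries of these genes did not overlap between the diets either, with Eif4ebp2 lower and Myc higher in adenine hearts.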

How the data were processed

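Hearts on adenine (4 libraries) and control diet (4 libraries) were compared. FastQC 0.11.9, STAR 2.7.6a and the build GRCm38.p6 are named in the submitters' processing notes. Counting program, annotation and strand setting were not given in the sources used here. Raw read counts per gene, not normalized, were deposited by the authors. Groups come from the sample titles, which read Adenine for the adenine libraries and Sham for the control libraries. Gene bounds, exon lengths and overlaps come from GENCODE M21, in which all 86 members and 27275 of 27304 rows were found, and start sequences from RefSeq, both on GRCm38.

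Tests ran in edgeR 4.0.16 (R 4.3.3). Genes were filtered by edgeR's default rule by diet, libraries were scaled by TMM, and a quasi-likelihood F-test gave log2 fold changes (adenine minus control) and p-values adjusted by Benjamini-Hochberg over 20093 genes. CPM values use TMM-scaled library sizes. The common biological coefficient of variation was 0.293. Before TMM scaling, 1 CPM is about 15.6 reads in the shallowest library, and slightly more after it, so lower values carry large counting error. DESeq2 1.42.0 (Wald test, on the same genes) and limma 3.58.1 (voom) were alternatives, and all were tested on simulated counts. There edgeR, DESeq2 and limma-voom recovered 53.9, 62.9 and 49.4% of 89 genes set to differ by 1 log2 unit. At 2 log2 units they recovered 92.8, 93.7 and 91.9% of 111 genes. Of their 162, 209 and 160 calls, 11, 49 and 14 were false. Recovery of differences under 1 log2 unit was not tested. TPM divides counts by merged exon length.

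Members and lists were chosen with earlier results of these data known. Values per library are given for Rpl3 and Rpl3l, the 3 genes of each subunit with the highest TPM, up to 5 with the lowest p per direction, and up to 4 with the widest range at a mean of at least 10 CPM. Up to 3 genes with the lowest p are named per list. The other genes named were chosen after their values were seen. Libraries of a diet differed by more than sampling noise (chi-square per gene 18.7 to 86.1). Same-numbered libraries had correlations of 0.086, -0.50, -0.16 and 0.30 in their deviations from the diet means, so the numbers were not taken as pairs. Some genes of the ribosome are not reported here.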

Additional observations from a re-analysis of the deposited data

Results flagged for a closer look

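In the adenine libraries the log2 ratio of Rpl22l1 to Rpl22 was -2.97, -3.52, -2.94 and -2.96 in adenine 1 to adenine 4. Adenine 2 stood apart from the other 3, its gap to the nearest being 0.943 of the whole range. In the control libraries Rpl41 had 409, 410, 358 and 414 CPM in control 1 to control 4, and control 3 stood apart by 0.916 of the range. Both exceed Dixon's 95% critical value for 4 libraries. With 46 groups of 4 libraries examined, chance gives such a gap in about 1 in 20 groups.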

How the results depend on the processing

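Under all 20 alternatives, 0 ribosomal protein genes were called in either direction. Of 338 values for the 17 named members under these alternatives, 301 kept their direction, 37 turned it and 0 passed the threshold. The number of genes called over the whole table was 8. It was 19 with upper-quartile factors, 328 with DESeq2, 5 with limma-voom, 2 with the trend on length and GC content removed, and 1 to 67 when each library was left out. Added after seeing the data, scaling to the core ribosomal protein counts gave 33, and leaving out adenine 2 and adenine 3 together gave 22. With the replicate number as a block it was 32, the median of the ribosomal protein genes was -0.03, and no member's call changed. The members' median moved to 0.12 with upper-quartile factors (all genes 0.20, a shift of all genes by over 0.1 from 0.05) and to -0.22 with the length and GC trend removed (all genes -0.10), and it ran from -0.16 to 0.11 when each library was left out. Small log2 fold changes turned sign. With upper-quartile factors Rpl3 was at 0.10, Rplp1 at 0.061, Rpl36 at 0.068, Rpl41 at 0.0083, Rps15 at 0.074 and Rps29 at 0.12. With no filter Rpl3 was at 0.017, and with a filter of 1 CPM in 4 libraries Rpl3 was at 0.048, Rplp1 at 0.0029, Rpl36 at 0.0055, Rps15 at 0.01 and Rps29 at 0.058. With the length and GC trend removed Rps12 was at -0.0087, Rps27a at -0.11, Rpl36a at -0.10 and Rpl39 at -0.093. With core scaling Rps29 was at 0.037, and without adenine 2 and adenine 3 Rps15 was at 0.0197, Rps27a at -0.0001 and Rpl39 at -0.073. With each library left out, the ranges were -0.46 to 0.20 for Rpl3, -0.20 to 0.10 for Rplp1, -0.13 to 0.035 for Rpl36, -0.14 to 0.068 for Rps15, -0.10 to 0.065 for Rps29, -0.027 to 0.38 for Rps12, -0.079 to 0.27 for Rps27a, -0.0785 to 0.29 for Rpl36a and -0.19 to 0.32 for Rpl39. The difference in the log2 ratio of Rpl3l to Rpl3 ran from -0.58 to 0.37, and it was above 0 when adenine 3 was left out. With same-numbered libraries paired, its exact sign-flip p was 0.875, where 0.125 is the smallest that 4 pairs allow. The cause of these changes was not tested. The difference in the share of counts ran from -0.22 to 0.23 percentage points with each library left out, and was 0.28 of nuclear counts. Depth limits Rpl39l, Rpl10l, Rpl24 and Rpl36al, which lay at about 1 CPM or less.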
